A study of Mus musculus with 7 samples.

Results

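Interferon-stimulated genes are switched on in almost every cell type when interferon binds its receptor, and the 37 mouse genes described here are a list of such genes chosen by symbol. A probe on the array could be matched by accession for 35 of the 37, and these 35 were among the 14549 genes tested. No probe was matched to Mx1 or Mx2, the antiviral dynamin-like GTPases, which are not analysed here. All 35 measured genes had a probe well above background on all 7 arrays, and none was saturated on any array.

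RNA came from dendritic cells grown in culture, and each sample was hybridised to 1 array in 1 colour. The 3 arrays labelled knockout came from Gata2(f/f)/ER-Cre mice and the 4 control arrays from Gata2(f/f) mice, so that both groups carry the conditional Gata2 alleles and only the former carries the tamoxifen-inducible Cre recombinase. Mice of both groups received tamoxifen between day 1 and day 10, and common myeloid progenitors were sorted on days 20 to 22, both on a C57BL/6 background per the labels. The progenitors, positive for CD45.2, were grown with FLT3-L at 200 ng/ml on CD45.1-positive bone marrow feeder cells of SJL mice. The labels do not say which promoter drives ER-Cre, how old the mice were, how feeder cells were kept out of the RNA, or whether replicates came from separate mice. The p-values therefore measure only the spread between these arrays, which may be technical. The short sample names of the arrays labelled knockout carry the abbreviation G2KD, left unexplained there, and the series title speaks of progenitors where the sample labels speak of dendritic cells.

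Type I interferons signal through the receptor chains Ifnar1 and Ifnar2 and the kinases Jak1 and Tyk2 to a transcription factor complex that contains Stat2 and Irf9. That complex binds the interferon-stimulated response element, a pair of GAAA blocks in the promoters of its targets, and the targets include antiviral effectors, nucleic acid sensors and parts of the pathway itself. Dendritic cells make interferon after sensing viral nucleic acid, and plasmacytoid dendritic cells are known for making large amounts of it.

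Values are log2 of the background-corrected spot signal minus the 75th percentile of the array, called log2 signal below, so that a step of 1 is a 2-fold change on 1 probe between arrays. On this scale the Gata2 probe stood at 2.93, 3.00 and 3.06 on the arrays labelled knockout and at -0.25, 0.24, 0.36 and 0.34 on the controls. It was higher by 2.82 (SE 0.17, limma adjusted p = 0.000153), opposite to a loss of the transcript, and no source used here says whether it lies in the deleted part of the gene. Differences are given as labelled, the arrays labelled knockout minus controls, and their direction rests on those labels. The share of spots well above background was 61.5% to 67.4% on the arrays labelled knockout and 54.1% to 56.9% on the controls. The groups also lay in different rows of the slide, so row and group cannot be told apart. Of 12 conventional dendritic cell markers 11 were tested, among them Flt3, Itgax, Cd74 and H2-Ab1, and all 11 were well above background on all arrays, while Xcr1 was above background on 1 array at most.

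The interferon-stimulated genes did not separate the groups. With limma, 0 of the 35 genes passed an adjusted p of 0.05 as higher and 0 as lower, against 217 genes higher (1.49%) and 201 lower (1.38%) of all 14549 tested (2.87% in either direction). The adjusted p-values of the 35 ran from 0.263 for Gbp2 to 0.992 for Ifih1, and Gbp2 alone had an unadjusted p under 0.05, where 13.5% of all genes did. Gbp2 was also the only gene of the list whose groups did not overlap, beside 13.8% of all genes. The mean was lower on the arrays labelled knockout for 25 genes and higher for 10, where 58.0% of all genes were lower. The median log2 difference of the 35 was -0.12 and that of all genes -0.05, and single genes ran from -0.62 for Ifit1 to 0.40 for Ddx58. For 23 genes the 95% interval of the difference lay within a 2-fold change either way, and for the other 12 it included such a change, which these arrays therefore do not exclude. The counts over all genes moved with single arrays: without replicate 1 of the arrays labelled knockout they were 108 higher and 136 lower, without replicate 3 they were 88 and 105, and without control replicate 3 they were 165 and 133. With normexp background correction in place of the scanner's own they were 195 and 288. The count among the 35 stayed at 0 in each of those fits. In bulk RNA, fewer cells of a type and less RNA per cell cannot be told apart.

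**Figure D1:**
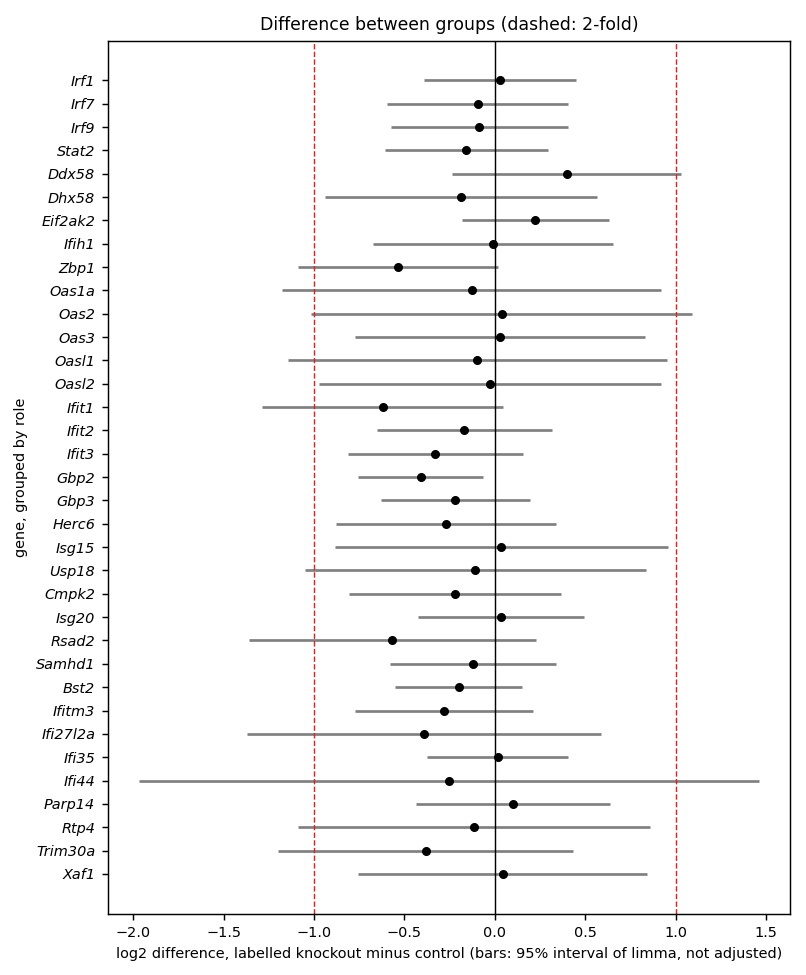
Log2 difference of each of the 35 measured genes, arrays labelled knockout (n = 3) minus controls (n = 4), as points with 95% limma intervals as bars, grouped by role; dashed lines mark a 2-fold change. The points lie between -0.62 and 0.40, and the Gbp2 interval, from -0.75 to -0.07, is the only one that does not include 0.

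What the genes shared was their order across arrays of the same group. Replicate 1 was the highest of the arrays labelled knockout for 28 of the 35 genes (80%, against 39.5% of all genes tested), and replicate 3 the lowest for 29 (82.9%, against 35.2%). Among the controls, replicate 3 was the highest for 22 genes (62.9%, against 24.1%) and replicate 4 the lowest for 27 (77.1%, against 27.2%). The median deviation of the 35 genes from their own group means was 0.41, -0.08 and -0.33 on replicates 1, 2 and 3 of the arrays labelled knockout. It was -0.0027, 0.20, 0.37 and -0.50 on control replicates 1 to 4. Each group therefore held an array with high and an array with low values across most of the list. Over all genes tested, the median deviations ran from -0.04 to 0.03 on the arrays labelled knockout and from -0.05 to 0.04 on the controls. The shares and deviations of the 35 genes describe a list whose genes are known to be induced together and carry no test. Over the 7 arrays, the highest value of a gene fell on replicate 1 of the arrays labelled knockout for 13 genes and on control replicate 3 for 12. The lowest fell on control replicate 4 for 14 genes and on replicate 3 of the arrays labelled knockout for 13.

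**Figure D2:**
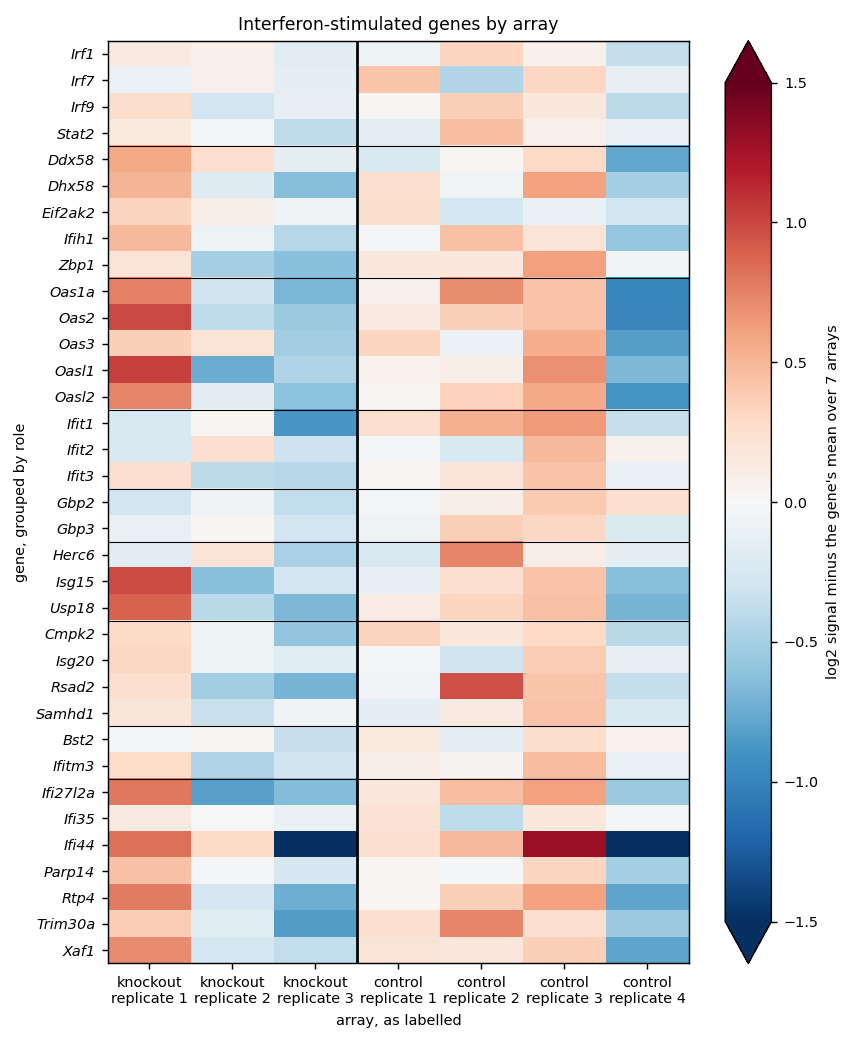
Heat map of the 35 measured genes (rows, grouped by role) on the 7 arrays (columns); colour is the log2 signal minus the mean of that gene over the 7 arrays, from blue (lower) to red (higher). Columns of replicate 1 of the arrays labelled knockout and control replicate 3 are mostly red and those of replicate 3 of the arrays labelled knockout and control replicate 4 mostly blue, while no column block separates the groups.

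The spread within groups was wide for this list. The SD within groups, pooled over both, had a median of 0.403 for the 35 genes and 0.233 for all genes tested, and 32 of the 35 lay above the latter value. It exceeded 0.5 for 14 genes (40%), against 11.0% of all genes. The median SD was 0.439 among the arrays labelled knockout and 0.434 among the controls, where all genes had 0.217 and 0.213, so the wide spread was present in both groups. For 29 genes (82.9%) the absolute difference between groups was smaller than the pooled SD within them, against 63.3% of all genes. The median absolute difference was 0.157 for the list and 0.176 for all genes.

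**Figure D3:**
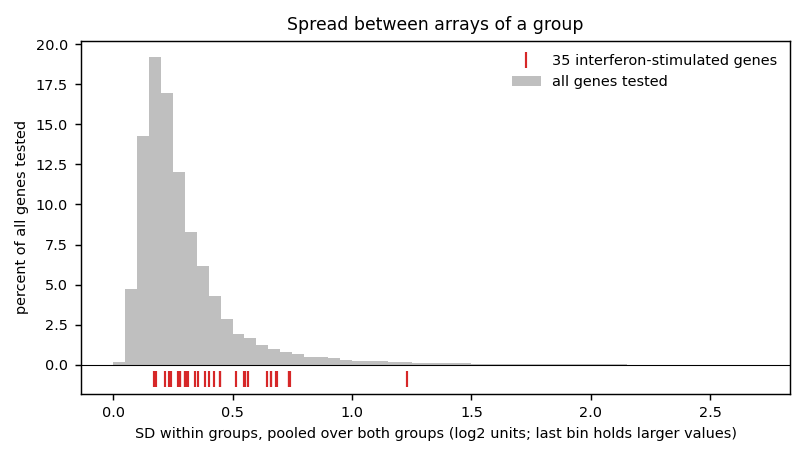
Distribution of the SD within groups over all 14549 genes tested (grey bars, percent of genes per bin of log2 units) with the 35 interferon-stimulated genes as red ticks under the axis. The ticks lie mostly to the right of the peak of the bars, between 0.172 for Gbp2 and 1.23 for Ifi44.

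Promoter sequence was not itself used to select these genes. They were listed as interferon-stimulated, however, and the response element lies in promoters of such targets, so the shares below carry no test. RefSeq windows on GRCm38.p6, from 250 bases before to 50 after the annotated start, were at hand for 28 of the 37 genes. The response element core, written GAAANNGAAA with any base at N and searched on both strands, occurred in 15 of the 28 (53.6%), against 3.99% of 27025 genes with a window. The form shortened by 1 base, GAAANNGAA, which also takes in every match of the longer form, occurred in 16 (57.1%, against 9.76%). The palindromic gamma-activated site TTCNNNGAA occurred in 9 (32.1%, against 9.55%). The 160 bases before the start are shown for 7 genes, 5′ to 3′ on the strand of the gene, with response element cores in capitals. A core that lies on the opposite strand appears as its reverse complement, starting with TTTC.
Isg15, chr4:156200819-156200978, minus strand: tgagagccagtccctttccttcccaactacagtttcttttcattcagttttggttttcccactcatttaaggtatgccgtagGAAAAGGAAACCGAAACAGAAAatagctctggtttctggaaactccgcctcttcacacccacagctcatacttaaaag
Oas1a, chr5:120907526-120907685, minus strand: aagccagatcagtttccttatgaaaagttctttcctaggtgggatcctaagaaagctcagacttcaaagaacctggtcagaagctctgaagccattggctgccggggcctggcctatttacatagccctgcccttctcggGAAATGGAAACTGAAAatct
Ifit1, chr19:34640729-34640888, plus strand: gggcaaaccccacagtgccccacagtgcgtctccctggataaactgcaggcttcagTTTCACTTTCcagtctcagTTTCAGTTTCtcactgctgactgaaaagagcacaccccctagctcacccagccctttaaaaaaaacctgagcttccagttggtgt
Rsad2, chr12:26456453-26456612, minus strand: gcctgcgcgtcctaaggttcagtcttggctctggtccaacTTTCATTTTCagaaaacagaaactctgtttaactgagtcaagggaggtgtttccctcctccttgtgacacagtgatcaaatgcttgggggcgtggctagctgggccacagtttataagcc
Bst2, chr8:71537473-71537632, minus strand: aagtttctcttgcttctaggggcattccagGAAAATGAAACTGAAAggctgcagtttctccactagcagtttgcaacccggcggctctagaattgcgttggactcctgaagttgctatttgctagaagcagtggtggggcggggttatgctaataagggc
Gbp2, chr3:142620503-142620662, plus strand: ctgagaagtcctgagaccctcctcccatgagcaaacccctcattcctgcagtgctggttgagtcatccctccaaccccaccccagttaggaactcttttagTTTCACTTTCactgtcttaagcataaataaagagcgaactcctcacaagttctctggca
Oasl2, chr5:114896774-114896933, plus strand: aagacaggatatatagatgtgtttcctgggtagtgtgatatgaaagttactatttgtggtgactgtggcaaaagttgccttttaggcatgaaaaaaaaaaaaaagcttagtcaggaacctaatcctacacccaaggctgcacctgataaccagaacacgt
The Isg15 window holds 3 overlapping cores between 78 and 57 bases before the start, and the Oas1a window holds 2 overlapping ones within 20 bases of it. Ifit1 and Rsad2, the genes with the largest differences between groups, have cores on the opposite strand, and Bst2 and Gbp2, whose values varied little between arrays, have cores as well. Oasl2, which followed the other genes across arrays most closely, has none in this window, which says only that these letters are not there. Among genes with a window, the 15 with a core had a median SD within groups of 0.421 (0.172 to 0.737) and the 13 without one 0.315 (0.219 to 1.23). The median difference between groups was -0.20 with a core and -0.09 without, and both sets overlap widely on both measures.

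Of the genes that carry the interferon signal to DNA, Irf9, the DNA-binding part of the complex with Stat2, stood at 4.31, 3.76 and 3.92 on the arrays labelled knockout and at 4.06, 4.41, 4.21 and 3.65 on the controls. The groups overlapped and the difference was -0.09 (SE 0.21, limma adjusted p = 0.909). Stat2, its partner, stood at 3.17, 3.00 and 2.64 against 2.88, 3.48, 3.10 and 2.91, a difference of -0.16 (SE 0.19, limma adjusted p = 0.788). Replicate 3 of the arrays labelled knockout was its lowest array overall and control replicate 2 its highest, and the groups overlapped. Irf7, the factor that amplifies interferon production, stood at 0.76, 0.93 and 0.70 against 1.26, 0.42, 1.17 and 0.73. The control values of Irf7 enclosed all 3 values of the arrays labelled knockout (difference -0.09, SE 0.22, limma adjusted p = 0.902). Unlike most of the list, Irf7 had control replicate 2 as its lowest array. Irf1, a factor induced by both interferon types, differed by 0.03 (SE 0.18).

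Among the sensors of foreign nucleic acid, Ddx58, which encodes the RNA sensor RIG-I, was the gene with the largest positive difference. It stood at 1.40, 1.08 and 0.70 on the arrays labelled knockout and at 0.61, 0.87, 1.13 and 0.05 on the controls (difference 0.40, SE 0.28, limma adjusted p = 0.603). Replicate 1 was highest and control replicate 4 lowest, and the groups overlapped. Zbp1, a sensor of left-handed nucleic acid that can start cell death, stood at -0.54, -1.25 and -1.37 against -0.58, -0.59, -0.13 and -0.79. Replicate 1 of the arrays labelled knockout reached the control values and the other two lay below all of them, with a difference of -0.53 (SE 0.24, limma adjusted p = 0.391). Without replicate 1 the Zbp1 difference was -0.79, and its adjusted p of 0.159 was the lowest of the list in that fit. The second probe of Zbp1 differed by -0.12. Ifih1, which encodes MDA5, Dhx58, which encodes LGP2, and Eif2ak2, the RNA-activated kinase PKR, differed by -0.01, -0.18 and 0.22, with limma adjusted p-values of 0.992, 0.858 and 0.649.

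The oligoadenylate synthetases, which answer double-stranded RNA by making the activator of RNase L, were the family that varied most between arrays of a group. The median SD within groups of the 5 genes was 0.736, and the family's median deviation was 0.83, -0.22 and -0.58 on the arrays labelled knockout and 0.01, 0.33, 0.55 and -0.91 on the controls. Oasl1, a family member without synthetase activity that restrains Irf7 translation, stood at 0.51, -1.26 and -0.96 against -0.46, -0.41, 0.16 and -1.19. Its replicate 1 value was 3.40-fold above its lowest value among the arrays labelled knockout, and the controls spanned 2.56-fold. Oas1a stood at 4.42, 3.37 and 2.98 against 3.73, 4.36, 4.09 and 2.69, and Oas2 at 2.08, 0.70 and 0.53 against 1.22, 1.44, 1.51 and 0.09. For both, replicate 1 of the arrays labelled knockout was highest and control replicate 4 lowest of all 7. Oasl2 stood at 2.51, 1.62 and 1.17 against 1.81, 2.13, 2.35 and 0.88, in the same order at both ends. The differences between groups in the family were small beside this, from -0.13 for Oas1a to 0.04 for Oas2, with limma adjusted p-values from 0.941 to 0.986. Oas3 differed by 0.03 (SE 0.35).

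The IFIT proteins bind viral RNA that lacks host cap marks. Ifit1 stood at -2.00, -1.74 and -2.65 on the arrays labelled knockout and at -1.54, -1.25, -1.14 and -2.12 on the controls. Its difference of -0.62 (SE 0.29, 95% interval -1.29 to 0.05, limma adjusted p = 0.411) was the largest of the list, and control replicate 4 lay below replicates 1 and 2 of the arrays labelled knockout. Ifit3 stood at 2.17, 1.52 and 1.48 against 1.95, 2.10, 2.34 and 1.81, a difference of -0.33 (SE 0.21, limma adjusted p = 0.568). Replicate 1 lay within the controls and the other two arrays labelled knockout below them. Ifit2 differed by -0.17 (SE 0.21).

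The guanylate-binding proteins are GTPases that attack the vacuoles of intracellular microbes. The 2 listed ones, Gbp2 and Gbp3, had the lowest median SD within groups of the role groups (0.206). This did not hold for the whole family: outside the list, Gbp4 and Gbp6 had SDs of 0.473 and 0.532, and Gbp5 and Gbp7 of 0.181 and 0.263. Gbp2 stood at 0.31, 0.54 and 0.22 on the arrays labelled knockout and at 0.57, 0.68, 0.98 and 0.83 on the controls, so that all 4 controls lay above all 3. The difference was -0.41 (SE 0.15, 0.752-fold, 95% interval -0.75 to -0.07), and it did not pass after adjustment (limma adjusted p = 0.263). Its order across arrays differed from that of the list: replicate 2 was its highest array labelled knockout and control replicate 1 its lowest control. Gbp3 differed by -0.22 (SE 0.18, limma adjusted p = 0.661).

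Isg15 encodes a ubiquitin-like protein that is secreted or coupled to other proteins. It stood at 3.71, 2.11 and 2.45 on the arrays labelled knockout and at 2.62, 2.99, 3.16 and 2.11 on the controls. Replicate 1 was above all controls and replicate 2 about level with the lowest of them, and the difference was 0.04 (SE 0.40, limma adjusted p = 0.981). Its second probe differed by -0.08. Usp18, which removes Isg15 from its targets and dampens the type I interferon receptor, stood at 2.35, 1.05 and 0.79 against 1.59, 1.78, 1.90 and 0.77. Replicate 1 of the arrays labelled knockout was its highest array and control replicate 4 its lowest, and it differed by -0.11 (SE 0.41). Herc6, the ligase that couples Isg15 in mice, differed by -0.27 (SE 0.26) with 1 probe and by 0.08 with the other.

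Of the effectors that act on nucleotides and RNA, Rsad2, or viperin, makes a chain-terminating nucleotide. It stood at -0.01, -0.78 and -0.95 on the arrays labelled knockout and at -0.30, 0.71, 0.16 and -0.61 on the controls. Replicates 2 and 3 lay below every control and replicate 1 inside their range (difference -0.57, SE 0.35, limma adjusted p = 0.544). Cmpk2, a mitochondrial nucleotide kinase, Samhd1, which breaks down deoxynucleotides, and Isg20, an exonuclease, differed by -0.22, -0.12 and 0.03.

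Bst2, or tetherin, holds budding virus at the cell membrane and is a surface marker of mouse plasmacytoid dendritic cells. It stood at 5.85, 5.91 and 5.54 on the arrays labelled knockout and at 6.03, 5.75, 6.15 and 5.94 on the controls. Control replicate 2 fell between the arrays labelled knockout, and the difference was -0.20 (SE 0.15, limma adjusted p = 0.638). Ifitm3, which blocks fusion of virus with endosomes, differed by -0.28 (SE 0.21, limma adjusted p = 0.636).

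Ifi44, a cytoplasmic protein induced by interferon, had the widest spread of the list within both groups. It stood at -0.69, -1.23 and -3.06 on the arrays labelled knockout, a 5.16-fold span, and at -1.27, -1.03, -0.22 and -3.11 on the controls, a 7.41-fold span. Replicate 3 of the former and control replicate 4 stood apart below the rest, at almost the same value, and the difference of -0.25 (SE 0.75) had a 95% interval from -1.97 to 1.46. Ifi27l2a, another strongly inducible gene, stood at 5.15, 3.54 and 3.70 against 4.53, 4.80, 4.95 and 3.80. Replicate 1 lay above all controls and replicates 2 and 3 below them, and the difference was -0.39 (SE 0.42, limma adjusted p = 0.755). Without replicate 1 it was -0.90. Trim30a, a ubiquitin ligase of the tripartite motif family, stood at 2.71, 2.16 and 1.50 against 2.58, 3.07, 2.59 and 1.79. Its groups overlapped (difference -0.38, SE 0.36, limma adjusted p = 0.705). The other genes of this set, Rtp4, Xaf1, Parp14 and Ifi35, differed by -0.12, 0.04, 0.10 and 0.02, and 3 of them had replicate 1 of the arrays labelled knockout as their highest array, Ifi35 having control replicate 1.

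Not every gene followed the common order. With group means removed, the correlation of a gene with the median of the other listed genes over the 7 arrays was above 0.9 for 12 genes, with a median of 0.862 and a maximum of 0.997 for Oasl2. It was under 0.5 for 7 genes: Gbp2 (0.10), Ifit2 (0.13), Irf7 (0.13), Ifi35 (0.17), Bst2 (0.37), Herc6 (0.42) and Eif2ak2 (0.45). These 7 points share an array normalisation and each gene is read by 1 probe, and the values are descriptions. Of 11 genes with a second tested probe, the 2 probes gave the same sign of the difference for 7 and opposite signs for Herc6, Ifih1, Irf1 and Isg15, all but Irf1 with differences under 0.3 on both probes.

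Across genes outside the list, the 5 with the highest correlation with the array medians of the listed genes, over the same 7 arrays with group means removed, were Vmn2r60 (0.995), Ifi214 (0.992), Pitpna (0.990), Parp4 (0.986) and Cxcl10 (0.985). The Vmn2r60 probe, of a vomeronasal receptor gene, was well above background on 2 of the arrays labelled knockout and 1 control only. Pitpna spanned only 1.14-fold in each group. Ifi214, of the interferon-inducible family with a pyrin domain, spanned 2.36-fold and 2.35-fold, and Cxcl10, a chemokine induced by interferon, 2.11-fold and 2.15-fold. Of the 40 other interferon-induced genes measured, 12 had a correlation above 0.9, beside 1.30% of the 14475 genes ranked, and their median was 0.787 beside 0.138. Of the 100 genes ranked highest, 9 were from those 40, which is 22.5% of the list of 40 and 9% of the 100.

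The rest of the pathway was read through lists of known components. Of 15 interferon genes 8 were tested, and 0 were higher and 0 lower, with a median difference of 0.09. Ifnb1, Ifng, Ifna4, Ifne and Ifnk were well above background on at most 2, 1, 0, 0 and 1 arrays and were not tested, and Ifnz and Ifnl2 had no matched probe. Ifna2 differed by 0.19 and Ifnab by 0.17, with limma adjusted p-values of 0.709 and 0.767, and these near-identical genes can share probe signal. Of 6 receptor genes 5 were tested and 0 passed in either direction (median -0.25). The 2 chains of the interferon gamma receptor had the largest differences, Ifngr1 at -0.45 (SE 0.17, limma adjusted p = 0.298) and Ifngr2 at -0.42 (SE 0.16, limma adjusted p = 0.289). Of 9 kinases and transcription factors of the pathway all were tested and 0 passed. Irf5 differed by -0.43 (limma adjusted p = 0.317) and Jak2 by -0.36 (0.579).

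Among 12 inhibitors of the pathway, 11 were tested (median -0.17). Of the 11, 1 was higher and 0 were lower, beside 1.49% and 1.38% of all genes tested. The one that rose was Tyro3, a receptor kinase of the TAM family that restrains responses of dendritic cells. It stood at -2.04, -2.77 and -2.39 on the arrays labelled knockout and at -4.30, -3.77, -3.80 and -4.39 on the controls, with no overlap. It was higher by 1.67 (SE 0.23, 3.18-fold, limma adjusted p = 0.00732). With same-numbered arrays treated as pairs, Tyro3 did not pass (limma adjusted p = 0.0976). Its relative Axl differed by -0.87 (SE 0.26, limma adjusted p = 0.162) and the feedback inhibitor Socs3 by -0.89 (SE 0.26, 0.155), neither past the threshold. Of 18 genes of pattern recognition upstream of interferon, 17 were tested and 0 passed (median -0.17). Ikbke, a kinase that activates Irf3 and Irf7, differed by -0.88 (SE 0.24, limma adjusted p = 0.132) and Irak4 by -0.50 (0.384). The Ikbke controls were -1.40, -2.20, -1.44 and -1.41, and without control replicate 2 its difference was -1.08 with a limma adjusted p of 0.0252. Leaving out its lowest control could only widen the difference, so that p-value is no separate support.

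Of 48 further interferon-induced genes outside the list, 40 were tested, and the median difference was -0.09. Of the 40, 0 were higher and 1 was lower, beside 1.49% and 1.38% of all genes tested. The one that fell was Gbp4, a guanylate-binding protein like Gbp2 and Gbp3. It stood at -0.96, -1.76 and -2.39 on the arrays labelled knockout and at 0.36, 0.47, 0.32 and 0.05 on the controls, with no overlap. It was lower by 2.01 on the log2 scale (difference -2.01, SE 0.30, 0.249-fold, limma adjusted p = 0.0109). With same-numbered arrays treated as pairs, Gbp4 did not pass (limma adjusted p = 0.0516). Genes of the guanylate-binding family are close copies of each other, so that a probe can pick up its relatives. Cxcl10 stood at 1.02, 0.46 and -0.06 against 1.36, 1.78, 2.00 and 0.89, overlapping through control replicate 4, with a difference of -1.04 (SE 0.32, limma adjusted p = 0.186). Gbp6 differed by -0.96 (SE 0.34, limma adjusted p = 0.245). Of 11 genes of antigen presentation induced by interferon gamma 9 were tested and 0 passed (median -0.23). B2m, the light chain of class I molecules, differed by -0.43 (limma adjusted p = 0.403) and Tap2, a peptide transporter subunit, by -0.39 (0.278).

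The order of the arrays was shared by the 40 other interferon-induced genes, with a smaller step. Their median deviation was 0.25, -0.07 and -0.14 on the arrays labelled knockout and 0.00078, 0.05, 0.18 and -0.30 on the controls, and their median SD within groups was 0.279. Conventional dendritic cell markers had a median SD of 0.182 and plasmacytoid markers 0.244. The plasmacytoid markers deviated by 0.19, -0.16 and -0.02 against 0.06, 0.08, -0.02 and -0.12. Neutrophil markers, 9 of 10 tested and 7 of them well above background on all arrays, deviated by 1.70, -0.68 and -1.11 on the arrays labelled knockout, and by -0.09, 0.38, 0.06 and -0.17 on the controls. Replicate 1 of the arrays labelled knockout was thus highest, and replicate 3 lowest, for both the interferon-stimulated genes and the neutrophil markers. Control replicate 4 was the lowest control for both (-0.50 and -0.17). Replicate 1 was also the highest array labelled knockout for plasmacytoid and B cell markers (0.19 and 0.29). The same held for mast cell and basophil (0.26), T cell (0.08) and NK cell markers (0.21). It did not hold for conventional dendritic cell markers (0.05, replicate 3 at 0.07) or monocyte and macrophage markers (-0.01, replicate 2 at 0.10). Control replicate 4 was also the lowest control for plasmacytoid (-0.12) and monocyte and macrophage markers (-0.14), but not for the remaining marker lists. The highest control was replicate 3 for the interferon-stimulated genes and replicate 2 for the neutrophil markers, where replicate 3 was at 0.06. The summed linear signal of the neutrophil markers, in units of the array's 75th percentile, was 103 to 145 on the arrays labelled knockout and 137 to 161 on the controls. That sum is mostly Csf3r and Mpo, which differed by -0.17 and -0.46, while the median difference of the 9 markers was -1.94 and Camp, Ltf and S100a8 differed by -2.98, -2.50 and -2.21. Of the 9, Elane alone passed (difference -0.86, limma adjusted p = 0.0352). Ngp, a granule protein gene of neutrophil precursors, was well above background on 1 array labelled knockout and on all 4 controls. The part of these cells in the spread of the interferon-stimulated genes was not tested.

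**Figure D4:**
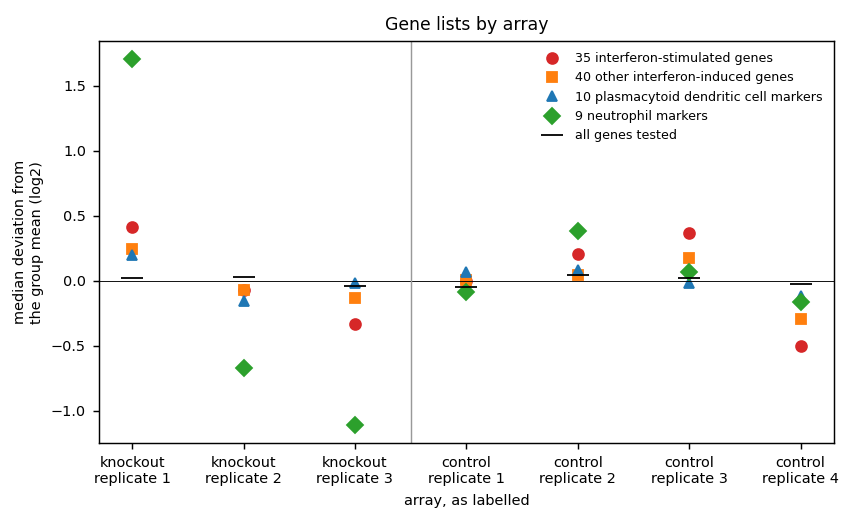
Median deviation from the group mean (log2) of 4 gene lists and of all genes tested (black dashes) on each array; a point is the median over the genes of a list. The interferon-stimulated genes run from 0.41 to -0.33 on the arrays labelled knockout and from 0.37 to -0.50 on the controls, the neutrophil markers from 1.70 to -1.11 and from 0.38 to -0.17.

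Markers of other cells differed between the groups in places. Of the tested markers, 6 of 9 for mast cells and basophils, 5 of 10 for monocytes and macrophages, 1 of 9 for neutrophils, 1 of 11 for conventional and 2 of 10 for plasmacytoid dendritic cells were lower on the arrays labelled knockout by limma. Higher were 3 of 9 for T cells and 4 of 8 for NK cells, and 0 of 8 for B cells passed in either direction. Of all genes tested, 1.38% were lower and 1.49% higher. Differences of the 8 tested NK cell markers ran from -2.39 to 3.36. In the same summed units, mast cell and basophil markers held 8.01 to 10.8 on the arrays labelled knockout and 18.9 to 30.4 on the controls, and monocyte and macrophage markers 67.8 to 78.8 and 91.4 to 106. T cell markers held 8.86 to 9.97 against 4.46 to 5.80, and NK cell markers, which overlapped, 27.1 to 30.1 against 23.4 to 36.3. Their part in the values of the interferon-stimulated genes, Gbp4 and Tyro3 was not tested.

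The median difference of the 35 genes moved with the arrays used. It was -0.12 on all arrays, -0.39 without replicate 1 and 0.07 without replicate 3 of the arrays labelled knockout. Without control replicate 4 it was -0.32, and without control replicate 3 it was -0.0027. The number of genes with a negative difference ran from 33 without replicate 1 to 16 without replicate 3 of the arrays labelled knockout. In none of the fits that left out an array did a gene of the list pass the threshold with limma. Without replicate 1, 5 genes had an unadjusted p under 0.05 (Ifi27l2a, Ifit3, Ifitm3, Rsad2 and Zbp1), and without replicate 3 none did.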

How the data were processed

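Amplified, Cy3-labelled RNA of cultured mouse dendritic cells (per the labels' protocols) was hybridised to 7 one-colour Agilent arrays (3 labelled knockout, 4 control). The deposited scanner files hold spot intensity, extracted by version 10.7.3.1 of Agilent's Feature Extraction software per the file headers: 62976 spots per array, 3671 of them controls, with a 75th percentile of the processed signal between 2671 and 3825. The deposited series table holds log2 values of the authors whose scale, centring and direction are not stated; comparison with the scanner values gave a log2 scale, centred per probe, in the same direction, with column medians of 0 except -0.02 for replicate 3 of the arrays labelled knockout. It served as an alternative.

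Main values were log2 of the processed signal minus the 75th percentile of the array, taken without control spots. Spots marked as outliers were dropped and the spots of a probe averaged. Probes were kept where 3 or more of 7 arrays had them well above background (34133 of 55681). The files give accessions rather than symbols; RefSeq accessions named 26413 probes (47.4% of all, 79.9% of those with a RefSeq accession) through a table of GRCm38.p6. The probe with the highest mean stood for each of 14549 genes. Groups were compared with limma 3.58.1 in R 4.3.3 (lmFit and eBayes, 5 residual and 3.09 prior degrees of freedom, no covariates), with Benjamini-Hochberg adjustment over all genes and a threshold of 0.05; intervals are 95% and not adjusted. The fit was tested on simulated data in which genes varied independently, so that test does not cover genes that deviate together. Precision is limited by how few arrays there are. They shared 1 slide.

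Interferon-stimulated genes and lists (interferon ligands, receptors, signal transduction, inhibitors, pattern recognition, other interferon-induced genes, antigen presentation and markers of conventional and plasmacytoid dendritic cells, monocytes, neutrophils, mast cells, T, NK and B cells) were chosen with earlier results of these data known. Values on every array are given for the 8 listed genes with the largest absolute difference, the 3 with the largest SD within a group, and Irf7, Irf9, Stat2, Isg15 and Bst2; Oas1a, Oas2, Oasl2 and Usp18 were added after their values were seen. From each pathway list, up to 3 genes past the threshold per direction and up to 2 others are named; 1 further gene is not reported here. Same-numbered arrays of the groups had correlations of deviations of -0.0975, -0.17 and -0.0488. Differently numbered ones ran from -0.195 to 0.231, and such correlations cannot tell whether the numbers pair the samples.

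Alternatives were normexp background correction of the median signal (offset 50), quantile normalization, the series table, other probe filters and probe choices, outlier spots kept, floors on dim signals, trend and robust eBayes, array weights, a replicate block, each array left out in turn and a threshold of 0.1.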

Additional observations from a re-analysis of the deposited data

Results flagged for a closer look

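Of 53 genes looked at, 3 had a control array set apart from the other 3 controls, judged by the gap to the nearest array as a share of the range of the 4. Chance marks about 1 gene in 20 that way, and genes of a list are not independent. For Xaf1 the lowest array was control replicate 4, at 1.57 against 2.52 to 2.72 (gap over range 0.830). For Irf5 the highest was control replicate 2, at 3.77 against 3.26 to 3.30 (0.926). For Ikbke the lowest was control replicate 2, at -2.20 against -1.44 to -1.40 (0.958).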

How the results depend on the processing

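In each of 20 alternatives at an adjusted p of 0.05, and in the fit as reported at 0.1, 0 of the 35 interferon-stimulated genes passed as higher and 0 as lower by limma. Over the alternatives the lowest adjusted p of any of them was 0.0968 (Gbp2, array weights). In the main fit 1 had an unadjusted p under 0.05, and between 0 and 5 did in the alternatives. The median difference was -0.12 on all arrays, ran from -0.39 to 0.07 with 1 array left out, and was -0.28 with array weights and -0.08 with quantile normalization, where the median of all genes was 0.02. At least 1 alternative turned the sign for 21 of the 35 genes, none of them called. Counts over all genes, 217 higher and 201 lower, became 365 and 2483 without the filter on dim probes, 380 and 374 with array weights, and 224 and 311 with a floor at each array's dimmest signal. With an array left out they ran from 88 to 225 higher and from 105 to 179 lower. Axl and Ikbke passed with array weights (adjusted p 0.0342 and 0.0219).

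The replicate block, in which same-numbered arrays form a pair and control replicate 4 has no partner, gave 86 genes higher and 95 lower, 0 interferon-stimulated genes either way and a median of -0.32. Tyro3 (adjusted p 0.0976) and Gbp4 (0.0516) did not pass under the block. The labels do not say that the numbers mark pairs, and the cause was not tested. A fit with the slide as a block was not run, since all arrays lie on 1 slide. Probes near background limit what dim transcripts such as the interferon genes can show.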
